A study of Mus musculus with 8 samples.

Results

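The memory and stem-like transcription factors measured here were *Tcf7*, *Lef1*, *Bach2*, *Myb*, *Id3*, *Satb1*, *Foxo1*, *Foxp1* and *Bcl6*, chosen by their symbols as 9 of the 24303 genes in a table of normalized counts from P14 CD8 T cells. P14 cells, taken here from spleens of uninfected mice, bear 1 transgenic T cell receptor, which recognizes the LCMV peptide GP33. The cells of all 4 conditions were first activated with plate-bound anti-CD3 and anti-CD28 for 2 days, and were then kept in medium with IL-2 and IL-15. Effector cells were sorted on day 7, and the labels do not give their peptide exposure. Acute-2d cells received no GP33 and were sorted on day 19. Acute-7d cells received GP33 until day 7 and rested without peptide until day 19. T_Dysf cells received GP33 until day 19 and TGF-β1 from day 7 to day 19, so that antigen and TGF-β1 cannot be told apart in any comparison with T_Dysf, and T_Dysf cells were under stimulation when they were sorted, while both Acute conditions were resting. These were cultured cells, with 2 libraries per condition. The labels do not say whether the 2 libraries of a condition came from separate mice, and activated cells were pooled on day 2, so each p-value measures the spread between these libraries only.

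TCF-1 (*Tcf7*) and LEF-1 (*Lef1*) are DNA-binding proteins that act with β-catenin or with TLE corepressors, and TCF-1 maintains naive, central memory and progenitor exhausted CD8 T cells. BACH2 restrains effector genes, MYB supports the self-renewal of stem-like cells, and ID3 blocks E proteins in memory precursors. FOXO1 drives genes of quiescence, survival and lymph node homing, FOXP1 holds T cells in quiescence, SATB1 organizes chromatin in developing and resting T cells, and BCL6 opposes Blimp-1 (*Prdm1*). The question was how the transcripts of these factors differed between T_Dysf cells, cells that had rested after a short stimulation, and Effector cells.

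All 9 factors reached at least 50 normalized counts in at least 1 library. A normalized count is the authors' estimated read count of a gene divided by the size factor of its library. Reads on genes numbered from 19382147 to 24856195 per library, and 3 reads were worth between 2.59 and 3.35 normalized counts, a floor that covers counting error only. The T cell identity of the libraries was plain from *Cd3e*, a chain of the CD3 complex, at 9573 or more in all 8 libraries, and *Cd8a* at 11170 or more. Of the 3 markers of CD4 T cells, *Cd4* and *Cd40lg* each stood at 13.0 in their highest library, while *Zbtb7b* held between 1041 and 1625. The 5 myeloid markers summed to between 300 and 713, and the 3 NK cell markers, which include *Eomes*, to between 1073 and 4545. The 5 B cell markers summed to between 55.8 and 178, and the 5 erythroid markers to between 46.8 and 101. In bulk RNA, fewer cells that express a factor and less RNA per cell cannot be told apart. RESUB, a prefix that the labels leave unexplained, stands in the names of Acute-7d replicate 1 and the Effector pair and not in those of the other 5.

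The sequence just before the start of 4 of the factors is shown, since these 4 fell in T_Dysf and have a RefSeq start within 200 bases of the GENCODE gene start, and to show how unlike the letters there are. Each line holds the 250 bases before the RefSeq start in GRCm38.p6, read 5′ to 3′ on the strand of the gene, with each CpG in capitals. *Tcf7* lies on chr11:52283015-52283264 on the minus strand, *Lef1* on chr3:131110047-131110296 on the plus strand, *Myb* on chr10:21160985-21161234 on the minus strand and *Satb1* on chr17:51833291-51833540 on the minus strand.
Tcf7: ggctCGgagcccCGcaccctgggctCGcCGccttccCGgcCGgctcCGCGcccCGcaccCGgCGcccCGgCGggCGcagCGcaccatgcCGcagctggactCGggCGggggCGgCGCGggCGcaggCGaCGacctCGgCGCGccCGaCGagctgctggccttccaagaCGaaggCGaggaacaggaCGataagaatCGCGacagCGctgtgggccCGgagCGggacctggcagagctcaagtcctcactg
Lef1: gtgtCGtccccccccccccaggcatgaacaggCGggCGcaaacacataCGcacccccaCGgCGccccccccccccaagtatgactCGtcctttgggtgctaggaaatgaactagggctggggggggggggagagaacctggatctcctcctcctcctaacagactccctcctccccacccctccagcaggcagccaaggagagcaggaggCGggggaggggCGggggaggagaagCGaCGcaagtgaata
Myb: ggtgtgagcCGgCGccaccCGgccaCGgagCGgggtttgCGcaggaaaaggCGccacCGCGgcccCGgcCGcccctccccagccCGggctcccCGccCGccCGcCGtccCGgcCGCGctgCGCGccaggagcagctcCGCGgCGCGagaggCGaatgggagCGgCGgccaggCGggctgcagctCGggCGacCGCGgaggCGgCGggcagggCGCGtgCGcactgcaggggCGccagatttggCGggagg
Satb1: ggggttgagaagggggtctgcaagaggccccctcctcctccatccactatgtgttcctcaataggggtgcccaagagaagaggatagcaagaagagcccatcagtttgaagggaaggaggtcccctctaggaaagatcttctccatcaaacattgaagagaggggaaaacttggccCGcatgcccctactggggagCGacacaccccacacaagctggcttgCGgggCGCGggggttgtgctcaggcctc

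The windows of *Tcf7* and *Myb* held 37 and 40 CpGs, more than 97.9% and 98.7% of the 27025 windows of the RefSeq table, whose median was 6. *Lef1* held 11 and *Satb1* held 5. The 4 windows shown thus did not share a CpG density. In the *Tcf7* window an ATG opened a reading frame of 55 codons with no stop up to the listed start, and in *Myb* and *Satb1* such frames had 32 and 23 codons, so the windows were not taken as free of coding sequence. The frame of *Tcf7* takes up most of its 250 bases, so its CpG count may largely be that of coding sequence. The counts say nothing about how the promoters compare. The TCF/LEF core, CTTTGAT or CTTTGTT on either strand, was found in 1 of the 9 windows, that of *Foxp1* at 195 bases before its start, and in 8.06% of all windows. The FOXO core GTAAACA was found in none of the 9 and in 3.06% of all. The windows of *Bach2* and *Foxp1* began 178631 and 1728 bases from the GENCODE gene start, so they are windows of an internal start.

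In T_Dysf cells 5 of the 9 factors fell below Acute-7d, namely *Tcf7*, *Lef1*, *Bach2*, *Myb* and *Satb1*. Against Acute-2d 6 factors fell, the same 5 and *Id3*. Against Effector cells 5 fell, namely *Tcf7*, *Lef1*, *Bach2*, *Myb* and *Id3*, and *Bcl6* rose. A factor was called when its fold change was at least 2 and its adjusted p was under 0.05 in limma's moderated test on log2(normalized count + 1), with Benjamini-Hochberg adjustment over all 24303 genes. Among all genes 3.03% fell and 2.54% rose in T_Dysf against Acute-7d, 4.21% fell against Acute-2d, and 4.75% fell and 4.47% rose against Effector. The shares were higher among the 13175 genes with a library of at least 50, which include all 9 factors. Of those, 4.39% fell and 3.76% rose against Acute-7d, 6.1% fell against Acute-2d, and 7.33% fell and 6.54% rose against Effector. Both T_Dysf libraries lay below the other 6 libraries for 6 of the 9 factors, and for 16.7% of the 13175 genes with a library of at least 50. The 3 comparisons share the T_Dysf libraries and are not independent of each other. The median log2 difference of all genes was 0 in each of the 3 comparisons.

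**Figure D1:**
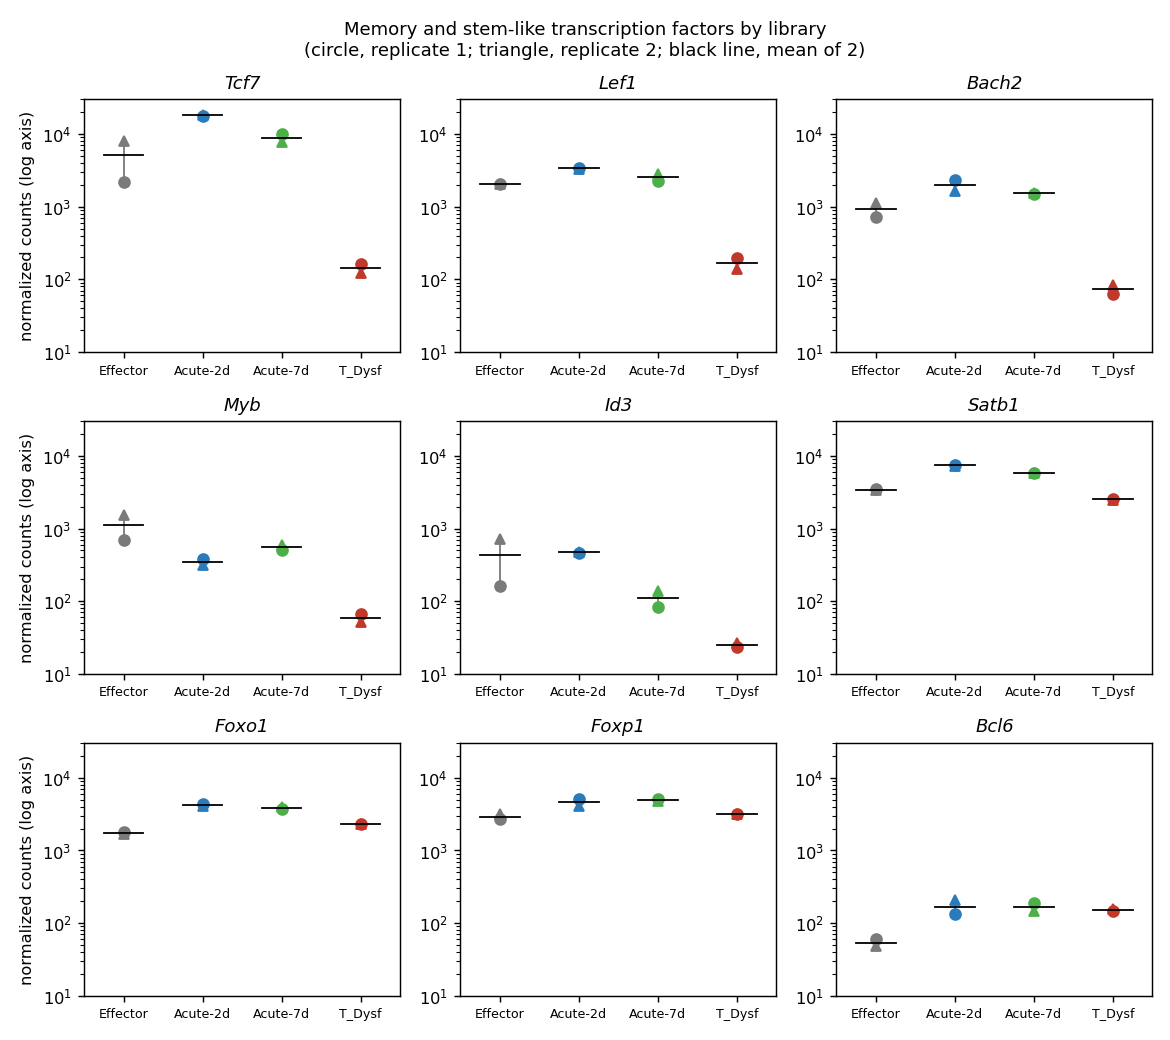
Normalized counts (log axis) of the 9 factors in each of the 8 libraries, with a circle for replicate 1, a triangle for replicate 2 and a black line for the mean of 2. The T_Dysf libraries are the 2 lowest of the 8 for Tcf7, Lef1, Bach2, Myb, Id3 and Satb1, and the Effector libraries of Tcf7, Myb and Id3 stand far apart.

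*Tcf7* stood at 17889 and 18473 normalized counts in the Acute-2d libraries, 9991 and 7789 in Acute-7d, 2178 and 8065 in Effector, and 161 and 122 in T_Dysf. The T_Dysf libraries lay far below each of the other 6, and above the floor of 3 reads. *Tcf7* (chr11:52252371-52283014, minus strand, GRCm38) fell by 5.97 ± 0.63 (SE) on the log2 scale from Acute-7d, a fold of 62.6 (limma adjusted p = 0.0114). Its fall was 7.01 ± 0.63 from Acute-2d, a fold of 129 (limma adjusted p = 0.00626), and 4.89 ± 0.63 from Effector, a fold of 29.8 (limma adjusted p = 0.0131). These were the largest falls of the 9 factors in each of the 3 comparisons. The call against Acute-2d held in all 16 alternative fits. That against Acute-7d held in 12, and was lost, at a log2 difference between -6.17 and -5.79, without Acute-7d replicate 1 (adjusted p = 0.0703), without Acute-7d replicate 2 (0.0548), without T_Dysf replicate 1 (0.0685) and with a term for the RESUB prefix (0.0703), all from limma. That against Effector also held in 12, and was lost without T_Dysf replicate 1 (limma adjusted p = 0.0714), without T_Dysf replicate 2 (0.0522), in a fit of the 2 conditions alone (0.0963) and with the RESUB term (0.182).

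*Lef1* encodes the other factor of the TCF/LEF family in mature T cells. Its libraries held 3454 and 3297 normalized counts in Acute-2d, 2281 and 2846 in Acute-7d, 2046 and 2077 in Effector, and 198 and 137 in T_Dysf. The 6 libraries outside T_Dysf lay close together and none came near the T_Dysf pair. *Lef1* (chr3:131110471-131224356, plus strand) fell by 3.94 ± 0.20 from Acute-7d on the log2 scale, a fold of 15.4 (limma adjusted p = 0.00226), and its differences were -4.35 ± 0.20 from Acute-2d and -3.64 ± 0.20 from Effector. All 3 calls held in all 16 alternative fits, where the adjusted p from limma reached at most 0.032 against Acute-7d, 0.0237 against Acute-2d and 0.04 against Effector. Other members of the TCF family were low, with means of 3.06 for *Tcf7l1* and 7.44 for *Tcf7l2* in T_Dysf.

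*Bach2* encodes a repressor that holds effector genes in check in memory T cells. It stood at 2350 and 1639 normalized counts in Acute-2d, 1515 and 1552 in Acute-7d, 726 and 1115 in Effector, and 62.1 and 82.7 in T_Dysf. The T_Dysf pair lay far below the other 6 libraries, of which the Effector pair was the lowest. *Bach2* (chr4:32238804-32586108, plus strand) fell by 4.40 ± 0.29 from Acute-7d on the log2 scale, a fold of 21.1 (limma adjusted p = 0.00432), and its differences were -4.75 ± 0.29 from Acute-2d and -3.63 ± 0.29 from Effector. The calls against both Acute conditions held in all 16 alternative fits. That against Effector held in 14, and was lost in a fit of the 2 conditions alone (limma adjusted p = 0.0553) and with the RESUB term (0.0898).

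*Myb*, which supports stem-like cells, was highest in Effector cells. Its libraries held 688 and 1551 normalized counts in Effector, 507 and 597 in Acute-7d, 384 and 313 in Acute-2d, and 65.8 and 51.6 in T_Dysf. T_Dysf was again the lowest pair. *Myb* (chr10:21124935-21160984, minus strand) fell by 4.12 ± 0.41 from Effector on the log2 scale, a fold of 17.5 (limma adjusted p = 0.00814), by 3.22 ± 0.41 from Acute-7d (0.0175) and by 2.55 ± 0.41 from Acute-2d (0.0241). The call held in 14 of 16 alternative fits against Effector, 11 against Acute-7d and 8 against Acute-2d. Against Acute-7d it was lost without any 1 of the Acute-7d and T_Dysf libraries and with the RESUB term, with log2 differences from -3.39 to -3.04 and limma adjusted p from 0.0613 to 0.0887. Against Acute-2d it was lost without any 1 of the Acute-2d, Acute-7d and T_Dysf libraries, with the replicate block and with the RESUB term, with log2 differences from -2.73 to -2.38 and limma adjusted p from 0.0531 to 0.115.

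*Id3* blocks the DNA binding of E proteins and marks memory precursors, while *Id2*, its relative, marks effector cells. *Id3* held 467 and 474 normalized counts in Acute-2d, 82.6 and 137 in Acute-7d, 164 and 708 in Effector, and 23.3 and 26.7 in T_Dysf. *Id2* stood at 7301 and 8842 in Acute-2d, 10919 and 9825 in Acute-7d, 7911 and 4997 in Effector, and 13461 and 14925 in T_Dysf. The T_Dysf libraries thus had the lowest *Id3* and the highest *Id2* of the 8. *Id3* (chr4:136143497-136145755, plus strand) fell by 4.18 ± 0.72 on the log2 scale from Acute-2d (limma adjusted p = 0.0284) and by 3.72 ± 0.72 from Effector (0.033). Its difference from Acute-7d was -2.05 ± 0.72 (95% interval -3.92 to -0.19) and was not called (limma adjusted p = 0.16, from 0.033 to 0.396 in the alternatives). The call against Acute-2d was lost in 7 of 16 alternative fits, which were those without any 1 of the Acute-2d, Acute-7d and T_Dysf libraries and that with the RESUB term, with limma adjusted p up to 0.136. The call against Effector was lost in 8, which were the same leave-outs, the RESUB term and the fit of the 2 conditions, with limma adjusted p up to 0.213. *Id2* rose by 1.17 ± 0.24 against Effector (limma adjusted p = 0.0392), which held in 6 of 16 alternative fits and, of the 8 that left out 1 library, in that without Effector replicate 1, with limma adjusted p up to 0.262. Its difference from Acute-7d was 0.45 ± 0.24 (limma adjusted p = 0.325).

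*Satb1* encodes a chromatin organizer, and its change was small but tightly measured. It stood at 7625 and 7394 normalized counts in Acute-2d, 5805 and 5862 in Acute-7d, 3480 and 3391 in Effector, and 2546 and 2494 in T_Dysf. The 4 conditions followed in this order with no overlap. *Satb1* (chr17:51736187-51833290, minus strand) fell by 1.21 ± 0.04 on the log2 scale from Acute-7d, a fold of 2.32 (limma adjusted p = 0.00083), and by 1.57 ± 0.04 from Acute-2d, a fold of 2.98, and both calls held in all 16 alternative fits. The difference between T_Dysf and Effector was -0.45 ± 0.04, past the adjusted p (0.0073, limma) but under a fold of 2.

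The condition means of *Foxo1*, *Foxp1* and *Bcl6* were lowest in Effector cells and not in T_Dysf, though for *Foxp1* the libraries of these 2 conditions overlapped. *Foxo1*, the forkhead factor that switches on *Klf2* and *Il7r*, held 4372 and 4154 normalized counts in Acute-2d, 3770 and 3918 in Acute-7d, 2299 and 2344 in T_Dysf, and 1776 and 1692 in Effector. T_Dysf lay between the Effector and Acute libraries without overlap. *Foxo1* (chr3:52268336-52353221, plus strand) differed by -0.73 ± 0.05 from Acute-7d and by 0.42 ± 0.05 from Effector on the log2 scale, past the adjusted p in both (0.00479 and 0.0112, limma) but under a fold of 2. In Effector cells *Foxo1* fell by 1.30 ± 0.05 from Acute-2d (limma adjusted p = 0.00137) and by 1.15 ± 0.05 from Acute-7d (0.0027), and both calls held in all 16 alternative fits.

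*Foxp1* had the smallest range of the 9 factors, 0.77 on the log2 scale between the highest and lowest condition. It held 5066 and 4155 normalized counts in Acute-2d, 5152 and 4730 in Acute-7d, 3173 and 3135 in T_Dysf, and 2677 and 3150 in Effector. The Acute libraries were all above the other 4, and the T_Dysf and Effector libraries overlapped. *Foxp1* (chr6:98925338-99522721, minus strand) differed by -0.65 ± 0.13 between T_Dysf and Acute-7d (limma adjusted p = 0.049), by -0.54 ± 0.13 from Acute-2d (0.0647) and by 0.12 ± 0.13 from Effector (95% interval -0.22 to 0.45), and no comparison reached a fold of 2.

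*Bcl6* stood at 132 and 205 normalized counts in Acute-2d, 191 and 145 in Acute-7d, 146 and 156 in T_Dysf, and 59.4 and 48.2 in Effector. The day 19 libraries overlapped, and both Effector libraries lay below them. The difference between T_Dysf and Acute-7d was -0.14 ± 0.27 on the log2 scale (95% interval -0.85 to 0.57). *Bcl6* (chr16:23965052-23988852, minus strand) was 2.78-fold higher in T_Dysf than in Effector, at 1.48 ± 0.27 (limma adjusted p = 0.0297), a call that held in 7 of 16 alternative fits and in 2 of the 8 that left out 1 library, those without either Acute-2d library, with limma adjusted p up to 0.171. *Prdm1*, which encodes the opposing repressor Blimp-1, stood at 994 and 947 in T_Dysf, 927 and 413 in Acute-7d, 411 and 326 in Acute-2d, and 1127 and 596 in Effector. The T_Dysf libraries of *Prdm1* lay above all 4 Acute libraries, with a difference of 0.65 ± 0.49 from Acute-7d (limma adjusted p = 0.468) and 0.24 ± 0.49 from Effector (0.824), neither called.

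**Figure D2:**
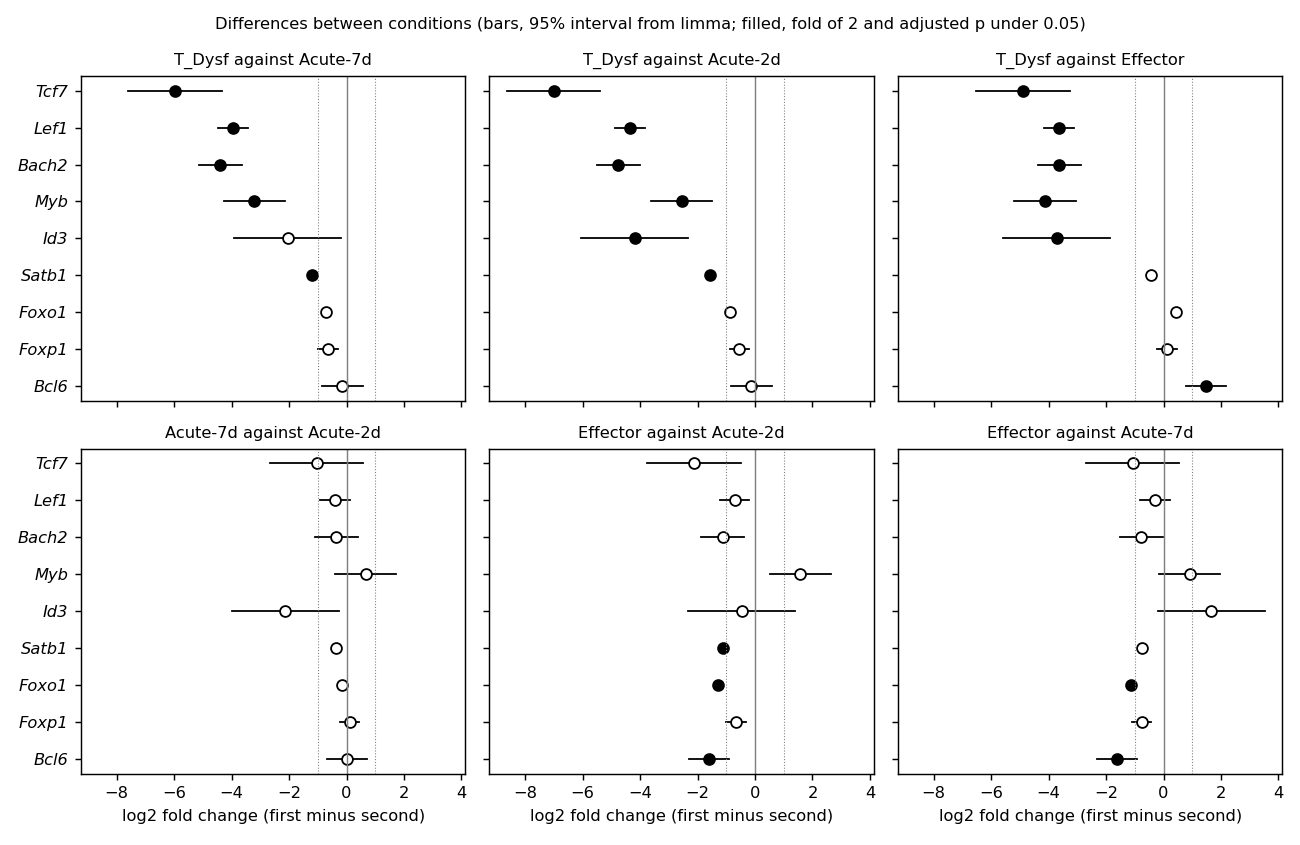
Log2 differences of the 9 factors in the 6 comparisons, first condition minus second, with the 95% interval from limma, filled where the fold was at least 2 and the adjusted p under 0.05, and with dotted lines at a fold of 2. In the 3 comparisons of T_Dysf the filled points from Tcf7 to Satb1 lie left of 0, and Bcl6 lies right of 0 at 1.48 against Effector.

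Set side by side per kilobase of exon in GENCODE, *Tcf7* was the most abundant of the 9 factors in Acute-2d, Acute-7d and Effector, with 6926, 3387 and 1951 normalized counts per kilobase. *Lef1* was the next in each, with 963, 731 and 588. In T_Dysf the order was *Foxp1* (402), *Foxo1* (268) and *Satb1* (219), then *Tcf7* (53.8), *Lef1* (47.7) and *Bcl6* (42.8), and last *Id3* (19.6), *Myb* (15.6) and *Bach2* (8.15). *Tcf7* and *Lef1* overlapped between libraries of T_Dysf, as did *Lef1* and *Bcl6*, and *Lef1* and *Foxp1* did in Acute-7d. *Satb1* and *Foxp1* overlapped in Acute-2d. In Effector cells, *Foxp1*, *Id3*, *Satb1* and *Myb* each overlapped with the next in the order, which ended with *Foxo1*, *Bach2* and *Bcl6*. The strand of the counting is not given in the sources used here, but genes that overlap the factors were low, the highest libraries being 110 for *A630014C17Rik*, antisense to *Tcf7*, and 243 for *E430014B02Rik*, in *Satb1*.

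Between the conditions that had rested, Acute-7d and Acute-2d, none of the 9 factors was called by limma, and 0.169% of all genes were. With an unadjusted p under 0.05 and a fold of 2, 1 factor passed, *Id3*, at -2.13 ± 0.72 on the log2 scale (limma adjusted p = 0.627). *Tcf7* differed by -1.04 ± 0.63 (95% interval -2.67 to 0.58), with both Acute-7d libraries below both Acute-2d libraries. The interval of *Lef1* (-0.92 to 0.11) leaves out a fold of 2, while those of *Bach2* (-1.11 to 0.40), *Tcf7* and *Id3* (-4.00 to -0.27) do not.

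Effector cells fell below Acute-2d in *Foxo1*, *Satb1* and *Bcl6* and below Acute-7d in *Foxo1* and *Bcl6*. Of all genes, 8.78% were called in either direction between Effector and Acute-2d and 8.06% between Effector and Acute-7d. *Satb1* fell by 1.13 ± 0.04 on the log2 scale against Acute-2d (limma adjusted p = 0.00121), which held in all 16 alternative fits, and its difference from Acute-7d was -0.76 ± 0.04. *Bcl6* fell by 1.60 ± 0.27 against Acute-2d (limma adjusted p = 0.0264) and by 1.62 ± 0.27 against Acute-7d (0.0272), and each of these calls held in 7 of 16 alternative fits, with limma adjusted p up to 0.157 and 0.123. Of the 8 fits that left out 1 library, the first held without either Acute-7d library and the second without either Acute-2d library, and neither in the other 6. *Tcf7* (-2.12 ± 0.63), *Bach2* (-1.12 ± 0.29) and *Myb* (1.57 ± 0.41) were not called against Acute-2d, with limma adjusted p of 0.0898, 0.0653 and 0.0668.

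The 2 Effector libraries differed in *Tcf7*, *Id3* and *Myb* by far more than in most genes. Replicate 2 held 3.7-fold more *Tcf7*, 4.31-fold more *Id3* and 2.25-fold more *Myb* than replicate 1. These differences were larger than those of 99.4%, 99.6% and 97.5% of the 11758 genes with a mean of at least 50 in Effector. *Bach2* differed by 1.53-fold in the same direction, within the range of most genes (85.6%), while *Lef1* differed by 1.01-fold, *Satb1* by 1.03-fold and *Foxo1* by 1.05-fold. The library with more *Tcf7* had the higher sum of 5 cycling markers, 55190 against 31037, the lower *Id2* (4997 against 7911) and the lower *Prdm1* (596 against 1127), and the part of these in the difference was not tested. The falls of *Tcf7*, *Id3* and *Myb* in T_Dysf against Effector were called without either Effector library, with log2 differences between -5.84 and -3.95 for *Tcf7*, -4.77 and -2.67 for *Id3*, and -4.71 and -3.54 for *Myb*.

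**Figure D3:**
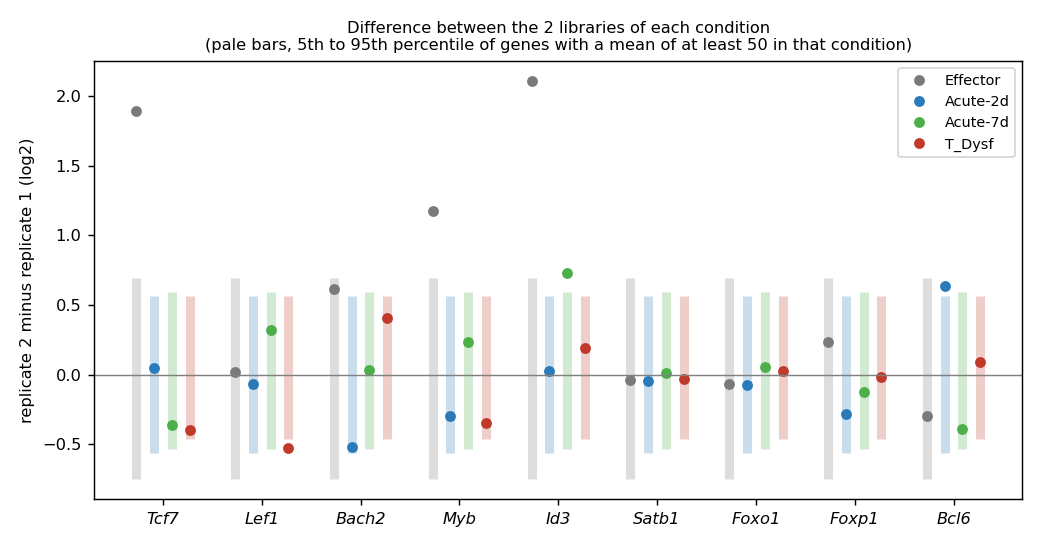
Difference between replicate 2 and replicate 1 on the log2 scale for the 9 factors in each condition, with pale bars from the 5th to the 95th percentile of genes with a mean of at least 50 in that condition. The Effector points of Tcf7, Id3 and Myb lie above their bar, at 1.89, 2.11 and 1.17.

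Both Effector libraries carry the RESUB prefix, so a term for it rests on the difference between the 2 Acute-7d libraries, of which 1 carries it. Without Acute-7d replicate 1, T_Dysf against the 1 Acute-7d library left differed by -5.79 in *Tcf7*, -4.10 in *Lef1*, -4.42 in *Bach2*, -3.33 in *Myb* and -1.22 in *Satb1* on the log2 scale. The lone library was assumed to vary like the other conditions, and that fit still held the Effector pair with the prefix. No library of T_Dysf or Acute-2d has the prefix. The cycling markers summed to 16598 and 14723 in T_Dysf, 2456 and 7750 in Acute-7d, and 7196 and 4995 in Acute-2d. None of the 5 was called by limma between T_Dysf and Acute-7d, all 5 were higher at an unadjusted p under 0.05, and their part in the differences between these conditions was not tested. Of all genes, 3.03% were called lower and 2.54% higher in this comparison. At an unadjusted p under 0.05 and a fold of 2, 3184 of all 24303 genes passed. Markers of other cell types also moved between T_Dysf and Acute-7d. The 3 NK cell markers summed to 1073 and 1748 in T_Dysf and 4545 and 3560 in Acute-7d, and all 3 were lower at an unadjusted p under 0.05. Of these *Ncr1* was called lower, at 2.59 and 1.78 in T_Dysf, at or under the floor, and 30.1 and 105 in Acute-7d (limma adjusted p = 0.0343). *Cd79b*, a chain of the B cell receptor complex, was called higher, at 136 and 115 in T_Dysf and 30.1 and 38.4 in Acute-7d (1.84 ± 0.30, limma adjusted p = 0.0307). The 5 B cell markers summed to 168 and 153 in T_Dysf and 55.8 and 68.7 in Acute-7d, and the other 4 were not called. Of these *Cd79a* held 18.1 and 21.4 in T_Dysf and 12.3 and 10.1 in Acute-7d, and *Ms4a1* held 2.59 and 1.78 in T_Dysf and 4.46 and 1.01 in Acute-7d. The calls of *Ncr1* and *Cd79b* each held in 7 of 16 alternative fits and in 2 of the 8 that left out 1 library. Those were the fits without either Effector library for *Cd79b*, and without Effector replicate 2 or Acute-7d replicate 1 for *Ncr1*. None of the myeloid and erythroid markers was called by limma or passed an unadjusted p under 0.05 with a fold of 2 in this comparison. Of the 8 T cell markers, 2 were called higher in T_Dysf, *Cd3e* and *Cd3g*, and 1 lower, *Cd5*. These calls held in 11, 9 and 9 of 16 alternative fits. The part of these markers in the differences of the factors was not tested.

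Most partners of the factors were not called. The 13 measured TCF/LEF partners and relatives include β-catenin (*Ctnnb1*) and the TLE corepressors. In T_Dysf against Acute-7d none of them was called lower and 1 was called higher by limma. With an unadjusted p under 0.05 and a fold of 2, none fell and 2 rose, *Jup* and *Tle2*. Of all 24303 genes, 3184 passed that rule in this comparison, in either direction. At the adjusted p, 3.03% of all genes fell and 2.54% rose, and 4.75% fell and 4.47% rose against Effector. Under a fold of 2, *Bcl9* (-0.99 ± 0.20), *Bcl9l* (-0.75 ± 0.12) and *Tle1* (-0.69 ± 0.15) fell at an unadjusted p under 0.05. Of these *Bcl9l* was past the adjusted p (0.0282, limma). The median log2 difference of the 13 was -0.30. The gene called higher was *Jup*, which encodes the β-catenin relative plakoglobin, with 245 and 273 normalized counts in the T_Dysf libraries and 12.3 and 41.4 in those of Acute-7d (3.45 ± 0.67, limma adjusted p = 0.0459). The call of *Jup* held in 5 of 16 alternative fits and, of the 8 that left out 1 library, in that without Acute-7d replicate 2, with limma adjusted p up to 0.177. *Tle2*, a TLE corepressor, stood at 684 and 837 in T_Dysf and 87 and 92.9 in Acute-7d, without overlap (3.06 ± 0.87, limma adjusted p = 0.107), and was called in 5 alternative fits. Against Effector, *Jup* rose and *Tle6* fell, with a median of 0.02. Of these calls, that of *Jup* held in 7 of 16 alternative fits and, when 1 library was left out, without either Acute-7d library, and that of *Tle6*, at 6.04 and 5.34 in T_Dysf and 30.2 and 18.1 in Effector, held in 4 of 15 and in none of the 8 that left out 1 library. None of the 6 E and Id proteins other than *Id3* was called by limma against Acute-7d (median -0.10). None of them passed an unadjusted p under 0.05 with a fold of 2 either. Under a fold of 2, *Tcf3* (-0.37 ± 0.11) fell at an unadjusted p under 0.05. None of 10 paralogs of the factors, such as *Foxo3* and *Bach1*, was called against Acute-7d (median -0.04). With an unadjusted p under 0.05 and a fold of 2, 1 paralog was higher, *Mybl2*. *Bach1* (-0.91 ± 0.23) fell at an unadjusted p under 0.05 but under a fold of 2. Against Effector, 1 of the 10 paralogs rose, *Foxo3*, at 1.32 ± 0.15 (limma adjusted p = 0.0109), a call lost without T_Dysf replicate 1 and held without each of the other 7 libraries, and none fell.

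Among 10 known targets of FOXO1, 3 fell in T_Dysf against Acute-7d and none rose by limma, with a median of -0.99 and all 10 values below 0. Of all genes, 3.03% fell and 2.54% rose there, and 4.75% fell and 4.47% rose against Effector. With an unadjusted p under 0.05 and a fold of 2, 4 fell, the same 3 and *Irs2*. That rule passed 3184 of all 24303 genes against Acute-7d. *Il7r* (-0.86 ± 0.10) and *Cdkn1b* (-0.94 ± 0.12) were past the adjusted p (0.0139 and 0.0165, limma) but under a fold of 2. *S1pr1*, the receptor that lets T cells leave lymphoid tissue, stood at 68.2 and 89 normalized counts in the T_Dysf pair and 3576 and 3391 in the Acute-7d pair. *Klf2*, the factor that drives *S1pr1*, stood at 104 and 133 in T_Dysf and 1868 and 1582 in Acute-7d. Both fell against Acute-7d, with log2 differences of -5.46 ± 0.22 and -3.86 ± 0.18, and both calls held in all 16 alternative fits, as they did against Effector. The third was *Ccr7*, a receptor for lymph node homing, at 38.9 and 66.7 in T_Dysf and 1718 and 1790 in Acute-7d (-5.08 ± 0.76, limma adjusted p = 0.0254), a call that held in 9 of 16 alternative fits and, of the 8 that left out 1 library, in those without either Effector library, with limma adjusted p up to 0.132. Against Effector, the same 3 fell and *Sesn3* rose, with a median of 0.27. There the call of *Ccr7* held in 8 of 16 alternative fits and, when 1 library was left out, without either Effector library (limma adjusted p up to 0.259), and that of *Sesn3* held in 9 and without Effector replicate 2 or either Acute-2d library (up to 0.242). The study had named *Ccr7*, *Klf2* and *S1pr1* from these same samples, so they are not independent evidence.

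Of 10 genes known from stem-like T cells, 6 fell and 1 rose in T_Dysf against Acute-7d, with a median of -1.23. Of all genes, 3.03% fell and 2.54% rose there, and 4.75% fell and 4.47% rose against Effector. With an unadjusted p under 0.05 and a fold of 2, 6 fell and 2 rose, *Kit* and *Xcl1*. That rule passed 3184 of all 24303 genes against Acute-7d, in either direction. *Xcl1* held 703 and 911 normalized counts in T_Dysf and 200 and 338 in Acute-7d, and was called in the fit of genes with a maximum of at least 50. *Slamf6*, whose product Ly108 marks progenitor exhausted cells, held 5.18 and 5.34 normalized counts in the T_Dysf libraries, 143 and 143 in Acute-7d, and 452 and 807 in Effector. It fell by 4.53 ± 0.33 on the log2 scale against Acute-7d and had a difference of -6.60 ± 0.33 against Effector, calls that held in all 16 alternative fits. *Dapl1* held 2.59 and 0 in T_Dysf, at or under the floor, against 64.7 and 53.5 in Acute-7d, and *Il6ra* held 4.32 and 4.45 against 82.6 and 57.6. *Ltb*, *Actn1* and *Cd27* also fell, and without T_Dysf replicate 1 or Acute-7d replicate 1 the count of genes that fell was 1, *Slamf6*. *Kit*, the receptor for stem cell factor, rose, at 1696 and 1363 in T_Dysf and 52.4 and 149 in Acute-7d (4.08 ± 0.77, limma adjusted p = 0.0435), a call that held in 6 of 16 alternative fits and, of the 8 that left out 1 library, in those without either Effector library, with limma adjusted p up to 0.183. Against Effector 5 fell and *Kit* rose. There the call of *Kit* held in 4 of 16 alternative fits and, when 1 library was left out, without Effector replicate 1 (limma adjusted p up to 0.473), and that of *Actn1* in 3 and without the same library (up to 0.469). *Slamf6* was the 1 gene of the 10 that was called against Effector in the fit of the 2 conditions and with the RESUB term, and without T_Dysf replicate 1 the genes that fell were *Slamf6* and *Dapl1*. The study had named *Cd27* from these samples.

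The 8 factors known from effector cells include *Tbx21*, *Irf4* and *Prdm1*. None of the 8 was called by limma between T_Dysf and Acute-7d, with a median of 0.55, while 3.03% of all genes fell and 2.54% rose. At an unadjusted p under 0.05 and a fold of 2, 1 rose (*Zeb2*) and 1 fell (*Eomes*). That rule passed 3184 of all 24303 genes. Against Effector 1 fell, *Irf4*, with a median of -0.27, and its call was lost without either Effector, Acute-7d or T_Dysf library. The highest of these differences from Acute-7d were those of *Zeb2* (1.12 ± 0.33), *Zfp683* (0.98 ± 0.24) and *Runx3* (0.98 ± 0.19), of which *Runx3* was past the adjusted p (0.0474, limma) but under a fold of 2.

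**Figure D4:**
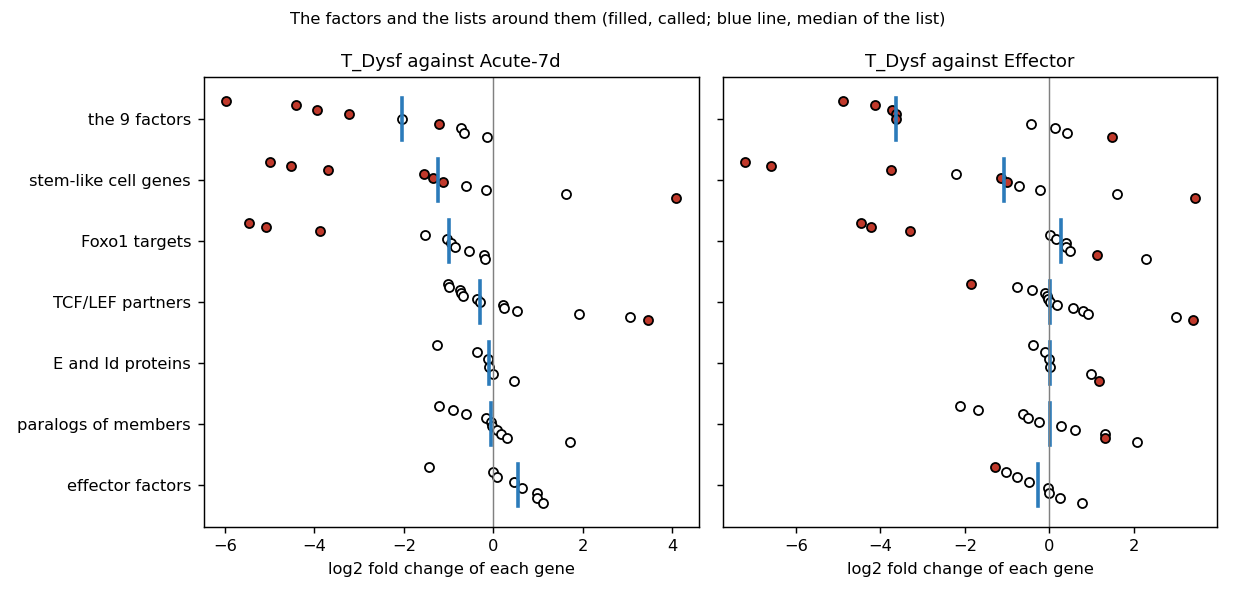
Log2 differences of single genes of the 9 factors and of 6 lists around them in T_Dysf against Acute-7d and against Effector, filled where called, with a blue line at the median of each list. The medians of the factors, the stem-like genes and the FOXO1 targets are -2.05, -1.23 and -0.99 against Acute-7d, and those of the other 4 lists lie between -0.30 and 0.55.

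The factors differed in how alike they were across the 8 libraries. The distance between a pair was the root mean square difference of their centred log2 values over the 8 libraries, in which libraries of a condition are not independent. *Foxo1* and *Foxp1* were the closest pair (0.25), then *Foxo1* and *Satb1* (0.33) and *Lef1* and *Bach2* (0.38), and *Tcf7* and *Bcl6* were the farthest (2.84). The distance is not scaled for how much a gene varied, so factors with small ranges between conditions lie close together. Those log2 ranges were 0.77 for *Foxp1*, 1.30 for *Foxo1*, 1.58 for *Satb1* and 1.62 for *Bcl6*, against 7.01 for *Tcf7*. Over 10925 other genes, the pattern closest to *Tcf7* was that of *Nsg2* (0.45), then *Ccr7* (0.50) and *Slc6a19* (0.60). Closest to *Lef1* were *Cmah* (0.22), *Usp33* (0.29) and *Klf2* (0.31), and closest to *Bach2* were *Smad3* (0.19), *Klf3* (0.22) and *Tlr12* (0.30). *Smad3*, which encodes a transducer of TGF-β signals, stood at 68.2 and 96.1 normalized counts in the T_Dysf libraries, 1723 and 1835 in Acute-7d, 1844 and 1856 in Acute-2d, and 679 and 1181 in Effector. Like *Bach2*, *Smad3* was lowest in both T_Dysf libraries and next lowest in both Effector libraries.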

How the data were processed

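The authors aligned polyA RNA-seq reads to mm10 with STAR, quantified them to RefSeq transcripts in Partek Flow and deposited 1 table of signal values, which are estimated counts divided by DESeq2 median-ratio size factors. The table was used as deposited, and all of its columns were used. Between 52.3% and 75.7% of the low values of a library were whole multiples of 1 read within 0.02 of a read, so no count model was used. Differences were tested in R (4.3.3) with limma (3.58.1) on log2(normalized count + 1), as 1 fit of 4 group means to 24303 genes and 8 libraries (4 residual degrees of freedom), checked on simulated data, all two-sided. With 2 libraries per condition an exact permutation test cannot go below p = 0.333. The fold change of a low gene is understated on this scale.

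The factors and the lists were chosen with earlier results of these data known. From each list at most 4 genes called between T_Dysf and Acute-7d with the largest differences were named, plus *Id2* and *Prdm1*. Other list genes were named after their values were seen. Pygo1 and Foxo6 of the lists were not measured here. Positions came from GENCODE vM21, windows from RefSeq (GRCm38.p6, all 9 factors matched). Tables and figures used matplotlib (3.10.9), pandas (2.3.3) and Python (3.11.15). The 16 alternative fits changed the pseudocount (0.1 or 10), the genes, the scaling, the libraries in the fit, a replicate block or a RESUB term, or left out 1 library (8 fits), and 2 other call rules were tried. The fit without genes at 0 in all libraries was chosen after seeing the data.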

Additional observations from a re-analysis of the deposited data

How the results depend on the processing

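Of 864 alternative values of a factor in a comparison, 773 kept their direction and side of the threshold, 67 lost a call, 15 gained one and 9 changed sign, none of them a value that was called. The counts of factors called moved as follows. Against Acute-7d, the 5 factors that fell in T_Dysf became 3 with the RESUB term and between 3 and 6 when 1 library was left out. Against Acute-2d, the 6 factors were between 4 and 6 when 1 library was left out. Against Effector, the 6 factors became 1, *Lef1*, in the fit of the 2 conditions and also 1 with the RESUB term, and between 3 and 5 when 1 library was left out. The fit of 2 conditions has fewer libraries, and the cause of the other shifts was not tested. Between Acute-7d and Acute-2d the count of 0 was 1 at an unadjusted p with a fold of 2, and between 0 and 0 when 1 library was left out. Between Effector and Acute-2d the 3 factors became 6 among genes with a maximum of at least 50, 6 among genes above 0 in a library and 6 at an unadjusted p with a fold of 2. They were between 2 and 3 when 1 library was left out. Between Effector and Acute-7d the 2 factors became 1 in the fit of the 2 conditions, 1 with the replicate block and 1 with the RESUB term, 4 with no minimum fold, and between 1 and 3 when 1 library was left out.

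The values that changed sign were those of *Bcl6* in T_Dysf against Acute-7d (0.051 with the RESUB term and 0.051 without Acute-7d replicate 1, in a range from -0.34 to 0.051 when 1 library was left out), in T_Dysf against Acute-2d (0.19 without Acute-2d replicate 2, in a range from -0.44 to 0.19) and in Acute-7d against Acute-2d (-0.18 with the RESUB term, -0.30 without Acute-2d replicate 1 and -0.18 without Acute-7d replicate 1, in a range from -0.30 to 0.34), of *Foxp1* in Acute-7d against Acute-2d (-0.037 without Acute-2d replicate 2, in a range from -0.037 to 0.25), and of *Id3* in Effector against Acute-2d (0.26 with the RESUB term and 0.59 without Effector replicate 1, in a range from -1.52 to 0.59).

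Libraries that share a replicate number share only that number. The correlation of their deviations over 13175 genes ran from -0.143 to 0.191 over 6 pairs of conditions, with 2 pairs over 0.1. With the replicate block the factors called were 5 against Acute-7d, 5 against Acute-2d (without *Myb*) and 5 against Effector (without *Bcl6*) in T_Dysf, 0 between Acute-7d and Acute-2d, 2 between Effector and Acute-2d (without *Bcl6*, limma adjusted p = 0.0554) and 1 between Effector and Acute-7d (without *Bcl6*). The number of all genes called moved by more than 1.5 times in several alternatives. It was 1353 against Acute-7d (422 to 3184 over 18 alternatives), 1787 against Acute-2d (656 to 3517) and 2241 against Effector (386 to 4060) in T_Dysf, 41 between Acute-7d and Acute-2d (0 to 910), 2135 between Effector and Acute-2d (235 to 3821) and 1958 between Effector and Acute-7d (155 to 3613). Depth limits the values near the floor, such as *Dapl1* in T_Dysf.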
